A study of Mus musculus with 16 samples.

Results

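Cldn11, Rhox5, Amhr2 and Aard are 4 genes of the Sertoli cell, the somatic cell of the seminiferous epithelium, and were followed here on 16 bead arrays of mouse testis RNA. They were taken by their symbols from the 840 genes (932 probes) that the authors' 2 deposited comparison tables name, and each has 1 named probe among the 25697 probes of the value table. All 4 are in the deposited TgMsi2 table and none is in the deposited TgMsi1 table. The genes were picked as higher in TgMsi2 testes, so the TgMsi2 comparison is given as a description without a test. The TgMsi1 comparison sets 8 other arrays against each other and was tested, in a fit whose spread comes from all 16 arrays and with an exact permutation test on those 8 alone.

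Every array held total RNA of whole testis from B6xCBA mice aged 3 months. The 4 groups of 4 arrays were mice that overexpress Musashi-1 (TgMsi1), wild-type littermates of that line (Wt(TgMsi1)), mice that overexpress Musashi-2 (TgMsi2) and wild-type littermates of that line (Wt(TgMsi2)). Both transgenes are described as testis-specific, and the labels name neither the promoter nor the cell type that drives them. Whether the 4 replicates of a group came from different mice is not stated in the labels, and the p-values therefore reflect only the spread among these arrays, which may be technical.

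Sertoli cells nurse germ cells through meiosis and sperm formation, respond to androgen and follicle-stimulating hormone, and seal the epithelium with tight junctions known as the blood-testis barrier. Cldn11 encodes claudin 11, a structural protein of those junctions, and male mice without it are sterile. Amhr2 encodes the type II receptor of anti-Müllerian hormone, which Sertoli cells secrete and which Sertoli and Leydig cells of the testis can bind. Rhox5, also called Pem, is an X-linked homeobox transcription factor whose Sertoli cell transcription depends on androgen. Aard encodes an alanine- and arginine-rich domain protein of poorly known function, used as a marker transcript of mouse Sertoli cells. Musashi proteins are RNA-binding proteins that recognize short sites with a UAG core and control translation, splicing or stability of the bound transcript.

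Each level reported below was read by a single 50-base probe, and the first 30 bases of each probe are shown to identify the stretch of transcript that was measured, with the letters TAG (the DNA form of UAG) in capitals.
Cldn11 probe: gtgtctaagactctggatactgcaagctcc
Rhox5 probe: gcgacaccgagattttgatttgatcacata
Amhr2 probe: gagtcccgatcctgTAGgcgacactgttca
Aard probe: tgtgtcTAGattccacccataccctcgatg
The Cldn11 probe lies at chr3:31063160-31063209, the Amhr2 probe at chr15:102284889-102284938 and the Aard probe at chr15:51876949-51876998, all on the plus strand. The deposited table gives no position for the Rhox5 probe, and RefSeq places that gene on chromosome X. The sources used here give neither the genome build of these positions nor the part of the transcript (coding or untranslated) that a probe reads. Read along the probe as deposited, the Amhr2 probe holds TAG at bases 15 and 47, counted from 1 at the 5′ end, and the Aard probe holds it at base 7. The Cldn11 and Rhox5 probes hold none. Among all 932 named probes, 329 (35.3%) hold at least 1 TAG. A probe covers a small stretch of its transcript, and a match is no evidence of binding.

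The 250 bases before the RefSeq start (GRCm38.p6) are shown, as a description, for the 3 members with an entry in the promoter table. The capitals mark the motif matches described after them. Higher TgMsi2 signals were the basis on which the genes were taken, and control through these motifs was not tested.
Cldn11 (chr3:31149670-31149919, plus strand): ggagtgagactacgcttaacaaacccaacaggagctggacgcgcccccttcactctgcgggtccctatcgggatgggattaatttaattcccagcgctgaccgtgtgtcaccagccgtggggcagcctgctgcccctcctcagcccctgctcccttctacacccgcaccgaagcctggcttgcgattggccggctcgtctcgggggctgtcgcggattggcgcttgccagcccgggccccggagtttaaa
Rhox5 (chrX:37754358-37754607, plus strand): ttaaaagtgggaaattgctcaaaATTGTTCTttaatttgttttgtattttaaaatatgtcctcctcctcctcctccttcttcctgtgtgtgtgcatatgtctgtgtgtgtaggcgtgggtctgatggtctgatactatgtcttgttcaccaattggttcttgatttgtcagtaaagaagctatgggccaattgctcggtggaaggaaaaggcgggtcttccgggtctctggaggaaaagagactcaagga
Amhr2 (chr15:102445117-102445366, plus strand): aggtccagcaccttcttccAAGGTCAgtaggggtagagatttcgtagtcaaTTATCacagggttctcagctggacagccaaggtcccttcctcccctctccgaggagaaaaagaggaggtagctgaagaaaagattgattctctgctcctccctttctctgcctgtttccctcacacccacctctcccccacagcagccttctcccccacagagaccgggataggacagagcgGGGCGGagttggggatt
Each window was searched on both strands for 5 exact motifs of factors known in Sertoli cells or at many promoters. These were AGAACA (androgen receptor core), GATAA (GATA factors), AAGGTCA (NR5A1, steroidogenic factor 1), AACAAT (SOX factors) and GGGCGG (GC box). The Rhox5 window holds the androgen receptor core as TGTTCT at base -225 and the SOX motif as ATTGTT at base -227, and these 2 matches overlap, so ATTGTTCT is printed as 1 run of capitals. The Amhr2 window holds AAGGTCA at -231, the GATA motif as TTATC at -199 and a GC box at -17. The Cldn11 window holds none of the 5, which says only that these letters are absent from this window. Of 32851 RefSeq windows of the same length, 16.1% hold the androgen receptor core, 22.6% the GATA motif, 4.08% AAGGTCA, 9.42% the SOX motif and 32.7% the GC box. G and C make up 63.6% of the Cldn11 window, 42.8% of the Rhox5 window and 55.2% of the Amhr2 window, against a median of 52.4% over all windows. Rhox5 is known to be transcribed from a proximal and a distal promoter, and which of them this start represents was not determined.

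The deposited log2 signals ran from 7.37 to 14.51, with a median of 7.83 on every array. Within groups, pairs of arrays had r of 0.988 to 0.996 across probes, and 0 pairs were identical. On the first principal component (40.9% of the variance), TgMsi2 replicates 1 and 3 lay at 35.3 and 30.2 and TgMsi2 replicates 2 and 4 at 13.6 and 9.20. TgMsi1 replicate 2 lay at 10.7, and the other 11 arrays between -16.4 and -3.46. The differences of the 4 genes are therefore given with and without these arrays. The probes for Msi1 and Msi2 are named in neither comparison table, so the genotype labels were not checked by the transgenes' transcripts.

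Cldn11, the junction protein gene, was higher on all 4 TgMsi2 arrays than on any Wt(TgMsi2) array. Its log2 signal was 13.45, 13.31, 13.50 and 13.40 in Wt(TgMsi2) replicates 1 to 4, and 14.27, 13.88, 14.32 and 13.84 in TgMsi2 replicates 1 to 4. The wild-type values lay close together, and TgMsi2 replicates 1 and 3 stood above replicates 2 and 4. The group means were 13.41 ± 0.08 and 14.08 ± 0.25 (SD, n = 4 each), a difference of 0.66 (SE 0.13) or 1.58-fold. A higher signal in whole testis can come from a larger share of Sertoli cells or from more transcript in each, and these cannot be told apart in bulk RNA.

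Amhr2, the receptor gene, had log2 signals of 13.08, 12.66, 12.74 and 12.70 in Wt(TgMsi2) replicates 1 to 4 and of 13.65, 13.24, 13.55 and 13.25 in TgMsi2 replicates 1 to 4. Wt(TgMsi2) replicate 1 was the highest of its group and still 0.16 below the lowest TgMsi2 array. The means were 12.80 ± 0.19 and 13.42 ± 0.21 (SD, n = 4 each), a difference of 0.62 (SE 0.12) or 1.54-fold. The array design holds 3 Amhr2 probes, and the other 2 are not named in the deposited tables and were not used here. Those 2 may have fallen short of the 1.5-fold limit of the deposited TgMsi2 table or be absent from the values. The 1.54-fold difference is therefore that of 1 probe of 3.

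Rhox5, the transcription factor gene, had log2 signals of 10.82, 10.44, 10.74 and 10.77 in Wt(TgMsi2) replicates 1 to 4 and of 11.46, 11.41, 11.52 and 10.90 in TgMsi2 replicates 1 to 4. TgMsi2 replicate 4 lay only 0.08 above the highest wild-type array, while TgMsi2 replicate 2 was nearly as high as replicates 1 and 3. The means were 10.69 ± 0.17 and 11.32 ± 0.29 (SD, n = 4 each), a difference of 0.63 (SE 0.13) or 1.55-fold.

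Aard had log2 signals of 13.67, 13.52, 13.43 and 13.65 in Wt(TgMsi2) replicates 1 to 4 and of 14.47, 14.07, 14.35 and 13.73 in TgMsi2 replicates 1 to 4. TgMsi2 replicate 4 was again the lowest of its group, 0.06 above the highest wild-type array, and TgMsi2 replicate 1 was close to the highest value in the table (14.51). The means were 13.56 ± 0.11 and 14.15 ± 0.33 (SD, n = 4 each), a difference of 0.59 (SE 0.14) or 1.51-fold.

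All 4 genes thus had TgMsi2 arrays that did not overlap their wild-type littermates, as 7.6% of the 25697 probes did in that direction. The count follows from the choice of the genes. The deposited TgMsi2 table lists 408 probes as higher, with folds from 1.501 upward, and Aard at 1.505 was the 11th lowest of these. Just under the 1.5-fold limit of the table, the nearest probe with an unadjusted p under 0.05 had a fold of 1.499, and 1 probe past both limits is not in the table. The authors' deposited table gave ratios of 1.58 for Cldn11, 1.55 for Rhox5, 1.54 for Amhr2 and 1.51 for Aard.

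The size of the TgMsi2 differences depended on which arrays were kept. Over the 4 genes, the mean deviation from the Wt(TgMsi2) mean was 0.84 in TgMsi2 replicate 1, 0.53 in replicate 2, 0.82 in replicate 3 and 0.31 in replicate 4. With 1 array left out at a time, the differences ran from 0.49 (Aard) to 0.77 (Rhox5). TgMsi2 replicates 1 and 3 were set apart after the data were seen. They have the highest means of the 4 genes, so smaller differences without them follow from that choice. Leaving out TgMsi2 replicates 1 and 3 together left log2 differences of 0.45 for Cldn11, 0.46 for Rhox5, 0.45 for Amhr2 and 0.33 for Aard. In that fit, which keeps only 2 TgMsi2 arrays, limma called 201 of the 25697 probes in either direction, against 2960 (11.5%) with every array.

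**Figure D1:**
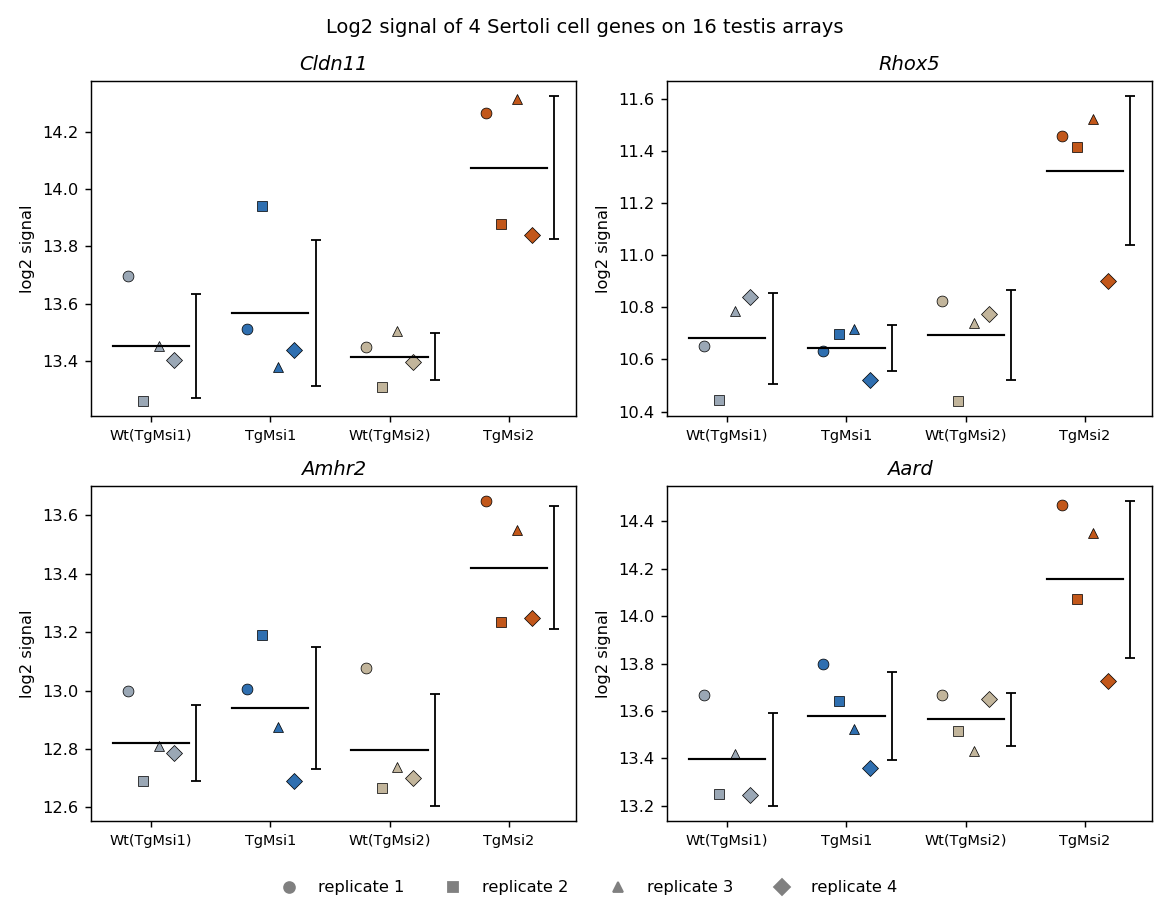
Log2 signal (vertical axis) of Cldn11, Rhox5, Amhr2 and Aard on each of 16 arrays, in 4 groups of 4, with symbols for the replicate number, a line at the group mean and a bar of 1 SD to each side. TgMsi2 arrays lie above the Wt(TgMsi2) arrays in each panel, with replicate 4 only 0.08 (Rhox5) and 0.06 (Aard) above the highest of them. The vertical axes do not start at 0 and differ between panels.

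In TgMsi1 testes no difference in these 4 genes exceeded the spread between replicates. Of the 4 genes, 0 had an adjusted p under 0.05 in limma and 0 had an unadjusted p under 0.05. Among all 25697 probes, 0.0117% (3 probes) were called in this comparison, 1.88% had 4 TgMsi1 arrays all above the 4 Wt(TgMsi1) arrays, as 0 of the 4 genes did, and 1881 had an unadjusted p under 0.05.

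Cldn11 had log2 signals of 13.70, 13.26, 13.45 and 13.40 in Wt(TgMsi1) replicates 1 to 4 and of 13.51, 13.94, 13.38 and 13.44 in TgMsi1 replicates 1 to 4. A single array, TgMsi1 replicate 2, stood above the rest, and the groups overlapped. The difference was 0.12 (SE 0.13, 95% interval -0.17 to 0.40, limma adjusted p = 0.907, 2-sided exact permutation p = 0.571). Without TgMsi1 replicate 2 it was -0.0095.

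Amhr2 had log2 signals of 13.00, 12.69, 12.81 and 12.79 in Wt(TgMsi1) replicates 1 to 4 and of 13.00, 13.19, 12.88 and 12.69 in TgMsi1 replicates 1 to 4. TgMsi1 replicate 2 was again the highest array, and the groups overlapped. The difference was 0.12 (SE 0.12, 95% interval -0.15 to 0.38, limma adjusted p = 0.896, 2-sided exact permutation p = 0.343). Without TgMsi1 replicate 2 it was 0.036.

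Rhox5 had log2 signals of 10.65, 10.45, 10.78 and 10.84 in Wt(TgMsi1) replicates 1 to 4 and of 10.63, 10.70, 10.72 and 10.52 in TgMsi1 replicates 1 to 4. The transgenic arrays lay inside the range of the wild-type arrays. The difference was -0.04 (SE 0.13, 95% interval -0.31 to 0.23, limma adjusted p = 0.976, 2-sided exact permutation p = 0.657). Without TgMsi1 replicate 2 it was -0.055. It turned positive, to at most 0.015, when TgMsi1 replicate 4 or Wt(TgMsi1) replicate 4 was left out.

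Aard had log2 signals of 13.67, 13.25, 13.42 and 13.25 in Wt(TgMsi1) replicates 1 to 4 and of 13.80, 13.64, 13.52 and 13.36 in TgMsi1 replicates 1 to 4. TgMsi1 replicate 1 was above all wild-type arrays and the other three lay within their range. The difference was 0.18 (SE 0.14, 95% interval -0.13 to 0.49, limma adjusted p = 0.849, 2-sided exact permutation p = 0.257). Without TgMsi1 replicate 2 it was 0.16.

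The smallest p that the exact permutation test allows with 4 arrays against 4 is 0.0286, and adjusted over the 4 tests each p was 0.657. Fitted on the 8 arrays of the line alone, the differences had SEs of 0.14 for Cldn11, 0.09 for Rhox5, 0.11 for Amhr2 and 0.12 for Aard, with limma adjusted p of 0.838 to 0.966. The intervals from all 16 arrays leave room for changes in either direction, and their upper ends lie at 1.32-fold for Cldn11, 1.18-fold for Rhox5, 1.31-fold for Amhr2 and 1.41-fold for Aard. In this comparison 3 of the 4 differences were above 0, against 50.1% of all probes, and their median was 0.12 against 0.00 for all probes. The 408 probes listed as higher in the deposited TgMsi2 table had a median of 0.18 in the TgMsi1 comparison, and 373 of them (91.4%) lay above 0, with 0 called. The median of the 4 Sertoli cell genes, at 0.12, was below the median of that table.

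**Figure D2:**
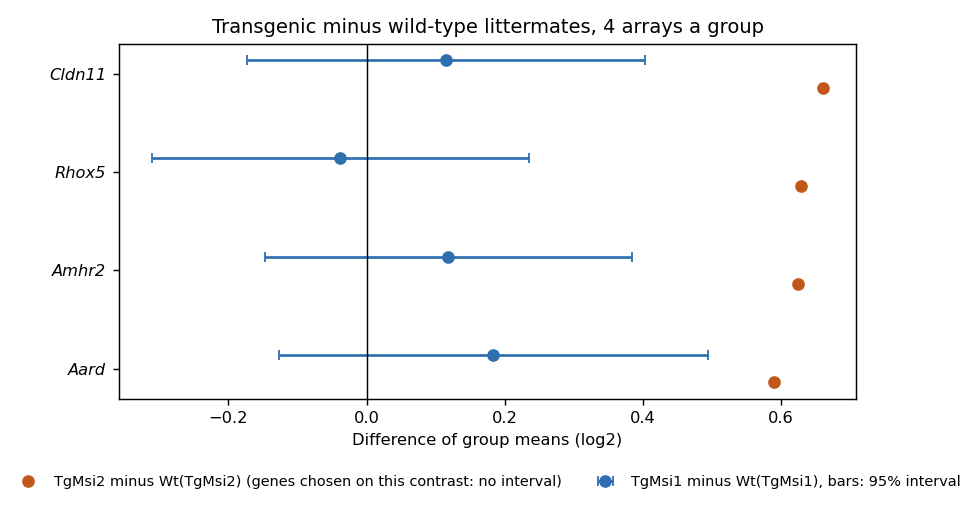
Difference of log2 group means (horizontal axis) between transgenic arrays and wild-type littermates for the 4 genes, with 4 arrays in each group. The TgMsi1 differences run from -0.04 (Rhox5) to 0.18 (Aard), with 95% intervals that include 0, and the TgMsi2 differences, on which the genes were chosen, run from 0.59 (Aard) to 0.66 (Cldn11) and carry no interval.

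Across the 4 groups, Cldn11 was ordered TgMsi2 (14.08), TgMsi1 (13.57), Wt(TgMsi1) (13.45) and Wt(TgMsi2) (13.41). Amhr2 followed the same order, with means of 13.42, 12.94, 12.82 and 12.80. Rhox5 was ordered TgMsi2 (11.32), Wt(TgMsi2) (10.69), Wt(TgMsi1) (10.68) and TgMsi1 (10.64), and Aard TgMsi2 (14.15), TgMsi1 (13.58), Wt(TgMsi2) (13.56) and Wt(TgMsi1) (13.40). For each gene the 3 groups below TgMsi2 overlapped. The Wt(TgMsi2) and Wt(TgMsi1) means differed by -0.04 for Cldn11, 0.01 for Rhox5, -0.03 for Amhr2 and 0.17 for Aard, where the 8 wild-type arrays had SDs of 0.13, 0.16, 0.15 and 0.17. The TgMsi2 arrays that lay above all other 12 arrays numbered 4 for Rhox5 and Amhr2, 3 for Aard and 2 for Cldn11. The highest of the other arrays was TgMsi1 replicate 2 for Cldn11 (13.94) and Amhr2 (13.19), TgMsi1 replicate 1 for Aard (13.80) and Wt(TgMsi1) replicate 4 for Rhox5 (10.84). The TgMsi2 difference minus the TgMsi1 difference was 0.55 for Cldn11, 0.67 for Rhox5, 0.51 for Amhr2 and 0.41 for Aard. These are descriptions, since the TgMsi2 part of each was used in the choice of the genes.

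The 4 genes also varied together within groups. Taken as deviations from the own group's mean on the 16 arrays, Cldn11 and Amhr2 had a Pearson's r of 0.81, Amhr2 and Aard 0.76, and Cldn11 and Aard 0.68. Rhox5 was less like the others, with r of 0.60 with Aard, 0.53 with Amhr2 and 0.51 with Cldn11. Over the 12 arrays outside the TgMsi2 group, r ran from 0.24 (Rhox5 and Aard) to 0.74 (Cldn11 and Amhr2). The median over all 433846 pairs of named probes was 0.00. The named probes include probes listed as lower as well as higher, so this median is no baseline for 4 genes taken from the higher side. Each of the 4 genes had higher r with some genes outside the 4 than with the other members, as given below. These coefficients describe arrays that share RNA, hybridization and normalization across all genes, and no p is given.

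**Figure D3:**
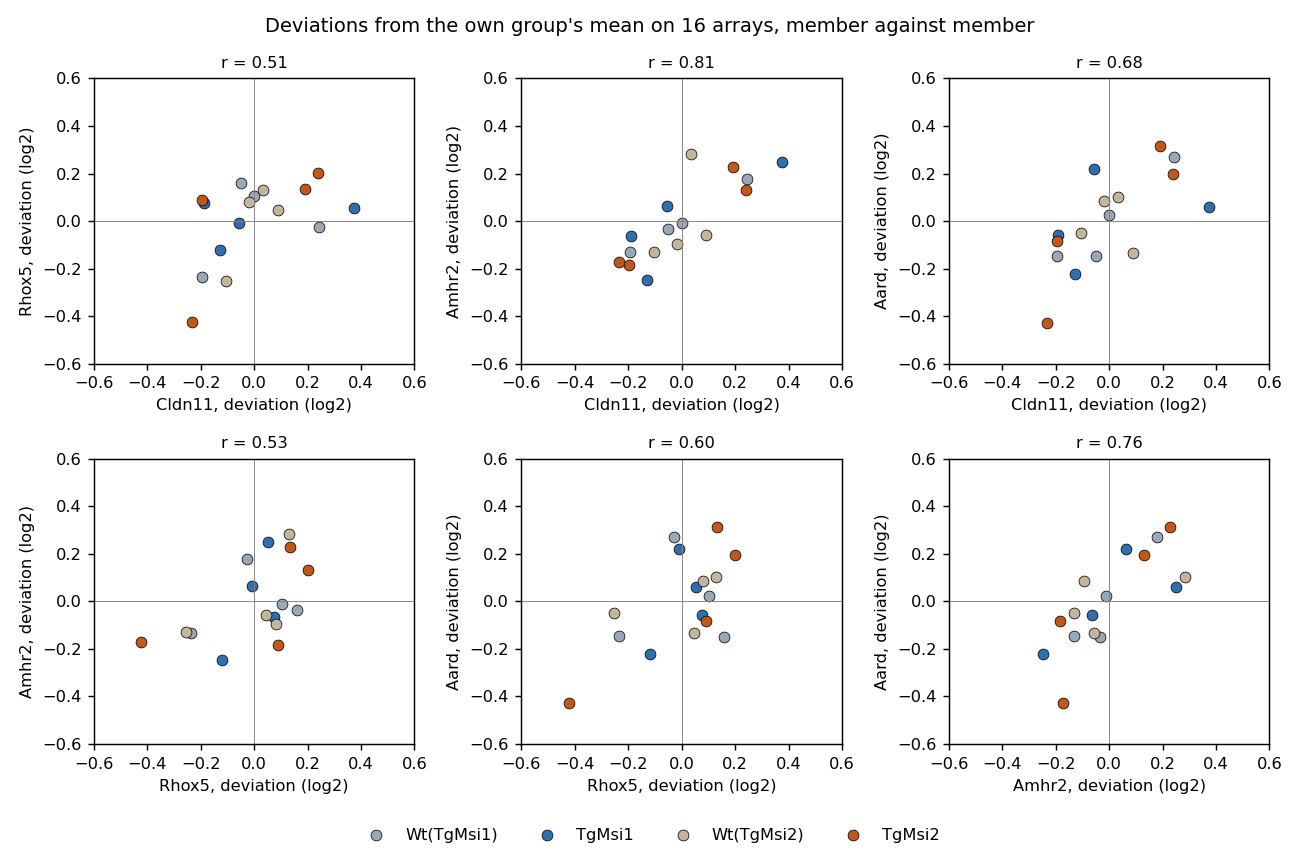
Deviation of each array's log2 signal from its own group's mean, 1 gene against another, for the 6 pairs among Cldn11, Rhox5, Amhr2 and Aard, with 16 arrays coloured by group. Pearson's r runs from 0.51 (Cldn11 and Rhox5) to 0.81 (Cldn11 and Amhr2).

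Among 928 other named probes, the genes whose deviations were most like those of Cldn11 were Psap, which encodes the prosaposin that Sertoli cells secrete (r = 0.96), Asah1, a lysosomal ceramidase (0.95), and Robo4, a receptor of vascular endothelium (0.93). Most like Amhr2 were the chromatin remodelling ATPase Smarca1 (0.93), the acyl-CoA synthetase Acsbg1 (0.93) and the proton pump accessory subunit Atp6ap1 (0.92). Most like Aard were Syap1 (0.93), Ostm1, a lysosomal membrane protein (0.90), and Bex2 (0.89). Rhox5 was most like Eppin, an androgen-regulated protease inhibitor made in Sertoli cells and epididymis (0.95), followed at a distance by Cox14, an assembly factor of cytochrome oxidase (0.82), and the stress response gene Gadd45a (0.80). Each r covers 16 arrays. These genes were taken as the highest of 928, so their r values are high by choice.

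The wider set of Sertoli cell transcripts could be seen only in part. Of 40 listed Sertoli cell markers, 36 are on the array design and 9 are named in the deposited tables. A gene is named only where a probe met the limits of a deposited table. Most of the listed markers on the design were therefore not listed there as changed, and the same applies to unnamed genes of the lists below. The defining markers Sox9, Amh and Fshr are not among the named ones and have no value here, so the cell type of the 4 transcripts rests on what is known of them. Any gene named in the deposited TgMsi2 table was selected on these arrays, so the direction of the listed genes in TgMsi2 is not independent evidence. All 9 had higher TgMsi2 means, as 47.6% of all probes did, with a median difference of 0.63 against 0.00 for all 25697 probes. Beside the 4 genes these were Serpina5, a serine protease inhibitor (0.92), the beta-defensin Defb45 (0.89), Shbg, the androgen-binding protein gene (0.72), the intermediate filament gene Vim (0.61) and the lysosomal membrane gene Lamp2. Without TgMsi2 replicates 1 and 3 the differences were 0.65 for Serpina5, 0.62 for Defb45, 0.46 for Shbg and 0.33 for Vim. Shbg was dim, with a Wt(TgMsi2) mean of 8.38 against a median of 7.83 over probes. Its lowest TgMsi2 array (8.24) lay below its highest Wt(TgMsi2) array (8.86). With a background level subtracted, its TgMsi2 difference moved to 1.28. Vim and Lamp2 are also transcribed in many other cell types. The brightest Lamp2 probe had a TgMsi2 difference of 0.32 (0.29 without those 2 arrays) and the other probes of 0.95, 0.84 and 0.80, so the Lamp2 probes disagree in size. In TgMsi1, 8 of the 9 had a difference above 0, against 50.1% of all probes, and the median was 0.12. In limma 0 of the 9 passed there, against 0.0117% of all probes. Among the 408 probes listed as higher in the deposited TgMsi2 table, 91.4% lay above 0 in TgMsi1, with a median of 0.18. The TgMsi1 differences were 0.23 for Serpina5, 0.22 for Defb45, 0.06 for Shbg, 0.02 for Vim and 0.46 for the brightest Lamp2 probe. Lamp2 is the 1 gene of the 9 that is in the deposited TgMsi1 table. Its brightest probe is named only through that table, so the value of 0.46 was selected on the TgMsi1 arrays and is not independent evidence.

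Cldn11 belongs to a list of 19 Sertoli cell junction genes, of which 18 are on the design and 3 are named. Beside it stood Ctnna1, the alpha-catenin that ties cadherins to actin, with a TgMsi2 difference of 1.01, and Nectin2, an adhesion molecule of the Sertoli-spermatid junction, with 0.72. Without TgMsi2 replicates 1 and 3 these were 0.79 and 0.42. The TgMsi1 differences were 0.22 and 0.16, and 0 of the 3 genes passed there in limma, where 0.0117% of all probes did. At that share, a count of 0 among so few genes tells nothing particular about them. Of 13 listed androgen-responsive genes of Sertoli cells, 12 are on the design and 5 are named. These are Rhox5, Cldn11, Aard, Eppin and the fatty acid-binding protein gene Fabp3. Eppin had a TgMsi2 difference of 0.82 and a TgMsi1 difference of 0.09, and Fabp3 of 1.13 and 0.48. In TgMsi1 0 of the 5 passed, against the same 0.0117% of all probes. Without TgMsi2 replicates 1 and 3 the TgMsi2 differences were 0.64 for Eppin and 0.87 for Fabp3. Amhr2 was the single named gene of 14 in the anti-Müllerian hormone signalling list, of which 13 are on the design, so neither the hormone nor the Smad genes could be followed. Rhox5 was likewise the single named gene of 13 in the Rhox homeobox cluster list.

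The named genes of other somatic cells also had higher means on the TgMsi2 arrays, and the named spermatid genes had lower ones. Nearly all of them are named because they are in the deposited TgMsi2 table, so their directions there follow from that selection and are given as a description. Of 14 Leydig cell markers 6 are named, all from that table and all with higher TgMsi2 means, led by Vcam1 (1.29) and Cyp11a1 (1.05). Summed over those 6 on the linear scale, the signal ran from 10202 to 14716 on Wt(TgMsi2) arrays and from 17028 to 27036 on TgMsi2 arrays. The 9 named Sertoli cell genes summed to 38296 to 46422 and to 54112 to 79302 on the same arrays. Such sums mostly follow the brightest genes, here Insl3 for the Leydig list and Cldn11, Aard and Amhr2 for the Sertoli list. Of the 4 Leydig genes with the largest differences, Insl3 and Cyp11a1 had 4 TgMsi2 arrays above the highest Wt(TgMsi2) array. Vcam1 had 3 such arrays and Hsd17b3 had 2. Among all probes, 7.6% had 4. Of 9 peritubular myoid markers 2 are named, and their sum ran from 2654 to 5695 and from 6732 to 9480. Of 14 macrophage and immune markers 4 are named, with sums of 1440 to 1694 and of 2671 to 3093. Robo4, the single named gene of 10 endothelial markers, ran from 278 to 301 and from 901 to 1554. Of 11 round spermatid markers 4 are named, all from that table and all lower in TgMsi2, with sums of 10408 to 12399 on Wt(TgMsi2) and 5162 to 8615 on TgMsi2 arrays. Of 11 elongating spermatid markers 2 are named, with sums of 21670 to 23493 and 13497 to 15941 that mostly follow Gapdhs, the brighter of the 2. Late spermatocyte markers had 2 of 9 named, Aurkc (-0.62) and Ccna1 (-0.14), and their sums of 4599 to 5286 and 3721 to 4819 overlapped. Spermatogonia, epididymis and blood markers had 0 named genes.

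Several of these lists, like the mean of the 4 genes, deviated most in TgMsi2 replicates 1 and 3, but not on every array or for every gene. Rhox5 was nearly as high in TgMsi2 replicate 2 (0.72) as in replicate 1 (0.76). In Wt(TgMsi2) replicate 3 the Leydig genes deviated by -0.42 and the myoid genes by -0.62, with a mean of the 4 genes of -0.01. Against the Wt(TgMsi2) mean, the round spermatid genes deviated by -1.06, -0.43, -1.07 and -0.39 in TgMsi2 replicates 1 to 4. The Leydig genes deviated by 1.38, 0.73, 1.07 and 0.45, and the myoid genes by 0.91, 0.68, 0.97 and 0.43. The macrophage genes, at 0.84, 0.93, 0.71 and 0.77, did not share the lower values of replicates 2 and 4. TgMsi1 replicate 2 was the highest TgMsi1 array for Cldn11 and Amhr2 but not for Rhox5 or Aard, which deviated there by 0.02 and 0.24. Its deviations from the Wt(TgMsi1) mean were -0.72 for the round spermatid and -1.16 for the elongating spermatid genes. The other TgMsi1 arrays were lower too for the elongating spermatid genes, at -0.30, -0.42 and -0.42 in replicates 1, 3 and 4, where 1 of the 2 genes is from the deposited TgMsi1 table. Their sums were 17138 to 20937 on Wt(TgMsi1) and 11725 to 16107 on TgMsi1 arrays. The round spermatid genes deviated by -0.01, -0.17 and -0.15 in TgMsi1 replicates 1, 3 and 4. The part of these lists in the differences of Cldn11, Rhox5, Amhr2 and Aard was not tested.

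**Figure D4:**
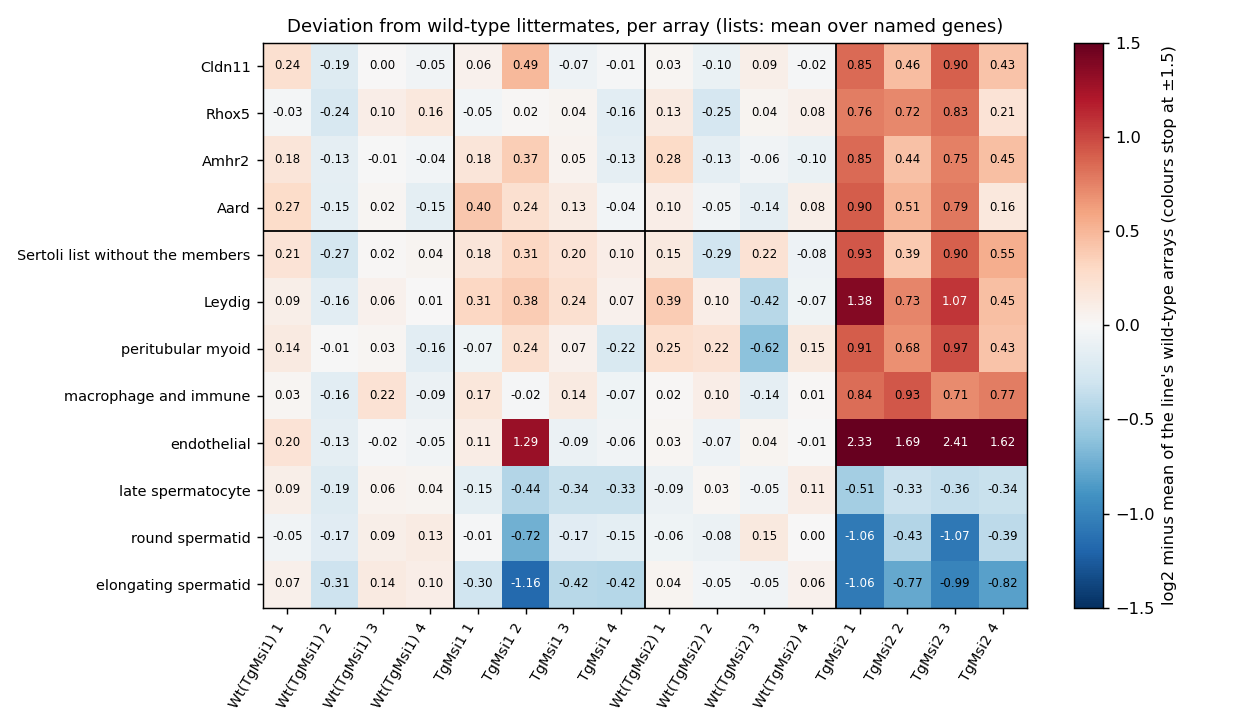
Log2 deviation of each of 16 arrays (columns) from the mean of the wild-type arrays of its line, for the 4 genes and, as a mean over named genes, for cell type marker lists (rows), with the value printed in each cell. TgMsi2 replicates 1 and 3 have the highest means of the 4 genes (0.84 and 0.82) and the lowest round spermatid values (-1.06 and -1.07).

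**Figure D5:**
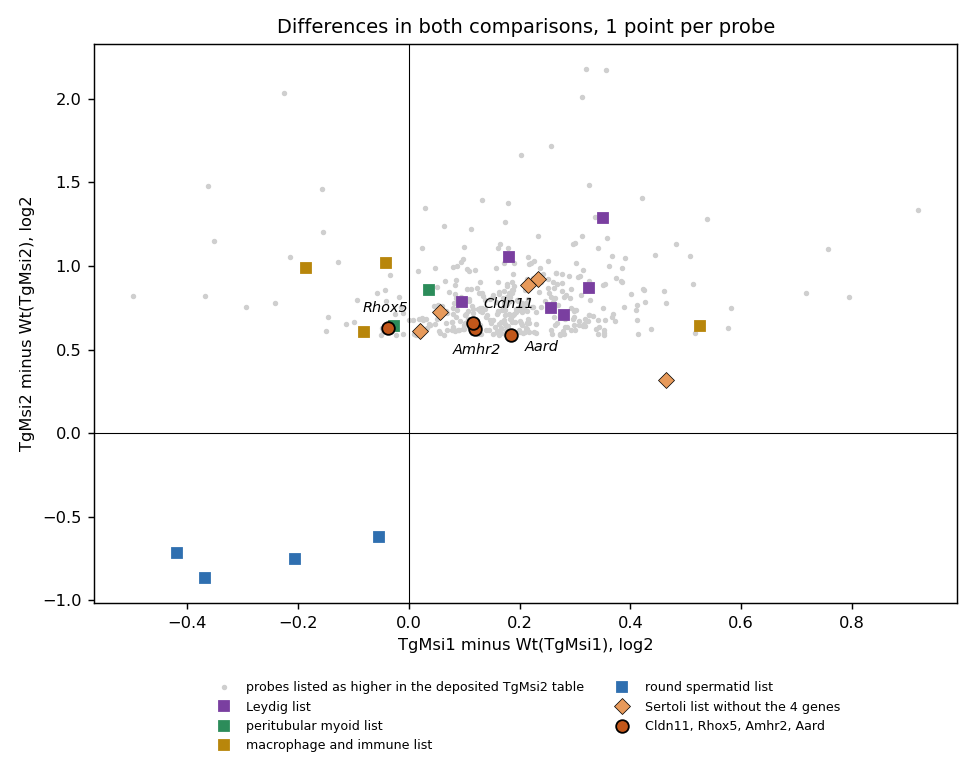
Difference of log2 means in the TgMsi1 comparison (horizontal axis) against that in the TgMsi2 comparison (vertical axis), with 1 point per probe. The 4 genes lie between 0.59 and 0.66 on the vertical axis and between -0.04 and 0.18 on the horizontal axis, among the 408 probes listed as higher in the deposited TgMsi2 table.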

How the data were processed

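The values analysed were the authors' deposited log2 signals of 25697 probes on 16 Illumina arrays. GenomeStudio is named in the submitters' processing notes, without a version. The sources used here do not state how the authors normalized these log2 values. Sorted by size, any pair of columns differed by no more than 0.006. Gene names, probe sequences and positions came from the deposited comparison tables, which also hold the authors' ratio of transgenic to wild type, per the file headers. Of the 932 named probes, 849 matched RefSeq (GRCm38.p6) by Entrez number. An unnormalized table has 128 array columns that could not be assigned to samples from the labels and were left out. Its gene symbols were used to count the genes on the design.

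Group means were fitted over all 16 arrays without a filter in limma 3.58.1 under R 4.3.3 (lmFit, contrasts, eBayes), after tests on simulated data. P-values were adjusted by Benjamini-Hochberg over 25697 probes, with a threshold of 0.05, and SEs and 95% intervals are those of the fit. A 2-sided exact permutation test over the 8 arrays of the TgMsi1 line stands beside it. Arrays have no read depth, so precision is limited by their number.

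The genes and marker lists were chosen with earlier results of these data known. Named genes were the 4 genes, every named member of the Sertoli cell lists, up to 4 of each other list by size of difference, and the 3 genes most like each of the 4 by r of deviations from group means, predicted genes left out. Lists used the brightest probe of a gene. Alternatives were a filter on mean log2 above 8, the 8 arrays of a line alone, an intensity trend with robust variance, array weights, the replicate number as a block, a subtracted background level, median centring, and each array left out in turn.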

Additional observations from a re-analysis of the deposited data

How the results depend on the processing

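In 24 alternative settings, 0 of the 4 genes were called in TgMsi1 (limma adjusted p from 0.698 to 0.999). Cldn11 there ran from -0.0095 (without TgMsi1 replicate 2) to 0.20 with 1 array left out, Rhox5 from -0.12 to 0.015, Amhr2 from 0.036 to 0.20 and Aard from 0.11 to 0.27. Rhox5 was 0.002 without TgMsi1 replicate 4 and 0.015 without Wt(TgMsi1) replicate 4. Shbg ran from -0.020 to 0.090 and was -0.0039 without TgMsi1 replicate 2. Vim ran from -0.058 to 0.084 and was -0.020 without Wt(TgMsi1) replicate 3 and -0.021 with array weights. In TgMsi2, with 1 array left out, Cldn11 ran from 0.58 to 0.74, Rhox5 from 0.54 to 0.77, Amhr2 from 0.55 to 0.72 and Aard from 0.49 to 0.73. A setting chosen after seeing the data, without TgMsi2 replicates 1 and 3 together, gave 0.45 for Cldn11 and 0.33 for Aard, and called 201 probes in TgMsi2 and 9 in TgMsi1. Over single arrays left out, limma called 0 to 30 probes in TgMsi1 and 1305 to 3530 in TgMsi2. Other counts in TgMsi1 were 8 among probes with a mean log2 above 8, 7 with robust variance and an intensity trend, 5 with array weights, and 0 from the line's own 8 arrays or with a background level subtracted (1791 and 1808 probes at an unadjusted p under 0.05). With the replicate number as a block limma called 17. Deviations of same-numbered arrays correlated between -0.32 and 0.45, and 3 of 8 transgenic arrays were most like their own number. With so few arrays these correlations cannot decide whether the numbers pair the samples, so pairing is unknown. A separate value for each named probe was not run, as each gene has 1. The cause of these changes was not tested. Bright values near the top of the scale and an unknown background level limit what the folds show.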
